A study of Homo sapiens with 14 samples.

Results

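The small ribosomal subunit was followed through 27 of its protein genes, chosen by name: RPSA, 25 genes of the RPS series and FAU, which encodes RPS30 fused to a ubiquitin-like protein. All 27 had guides in H3, 1 of the 7 sublibraries of a genome-wide CRISPR interference library that named 18905 genes in all. Each gene had 5 guides at its primary start, or 135 guides, and none of its guides was in H4.

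The cells were HEK293 FLP-In, a human embryonic kidney line with a docking site for transgenes, and every library came from the same engineered background. The cells expressed the delta opioid receptor (DOR) joined to the peroxidase APEX2, together with dCas9-KRAB-BFP, a repressor that guides direct to gene starts, from clonally expanded cells. Guides were delivered at a multiplicity near 0.2, cells were grown for 8 days with puromycin at 0.75 µg/ml for 3 of them, and all were given 10 µM DADLE, an opioid agonist, for 90 minutes before APEX2, given 50 µM H2O2, converted Amplex UltraRed (100 µM) to a fluorescent product. The dimmest quartile (H3 bottom) and the brightest quartile (H3 top) were each sequenced as 1 library, so neither group had a replicate and there was no unstimulated group. The H3 bottom library held 27478717 reads and the H3 top library 31762301.

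The small subunit reads the mRNA and holds the decoding centre, and the large subunit joins the amino acids. Its proteins fold its ribosomal RNA into a head, which carries the mRNA and tRNA contacts above the neck, and a body with its platform; most are needed for the RNA to be processed at all, with assembly factors that leave before translation begins. Their mRNAs begin with a run of pyrimidines that ties their translation to mTORC1, and loss of 1 copy of several of these genes causes Diamond-Blackfan anaemia.

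The deposited tables name each guide by gene, strand and position and hold no guide letters. The stretches around the annotated starts are shown for the 3 genes farthest toward the dim side and the 2 nearest to no difference. No guide was placed on these stretches, so they do not show where the guides act. The letters are from RefSeq on GRCh38.p14, 5′ to 3′, from 100 bases before the start to 20 bases of the transcript, and capitals mark the pyrimidine run. They lie at chr10:78033763-78033882 (plus strand) for RPS24, chr19:8321396-8321515 (plus strand) for RPS28, chr6:33271975-33272094 (plus strand) for RPS18, chr19:39435930-39436049 (minus strand) for RPS16 and chr11:75399418-75399537 (plus strand) for RPS3.
RPS24: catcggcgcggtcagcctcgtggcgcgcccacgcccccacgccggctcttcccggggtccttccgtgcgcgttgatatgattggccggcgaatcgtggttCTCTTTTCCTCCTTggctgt
RPS28: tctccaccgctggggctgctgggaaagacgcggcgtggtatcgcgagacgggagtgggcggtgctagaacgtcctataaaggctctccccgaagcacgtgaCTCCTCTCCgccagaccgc
RPS18: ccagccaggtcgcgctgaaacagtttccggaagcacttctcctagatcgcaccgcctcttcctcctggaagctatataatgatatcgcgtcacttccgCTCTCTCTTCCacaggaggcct
RPS16: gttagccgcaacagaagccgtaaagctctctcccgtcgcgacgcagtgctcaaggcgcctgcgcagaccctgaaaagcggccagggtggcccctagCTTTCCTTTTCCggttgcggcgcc
RPS3: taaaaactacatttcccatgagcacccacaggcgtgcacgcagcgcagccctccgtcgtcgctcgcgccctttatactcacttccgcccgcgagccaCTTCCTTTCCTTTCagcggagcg

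The table held 24 of the 27 genes. A run of at least 6 C or T letters that opened with a C within 10 bases of the start was found in 21 of these 24 (87.5%), in 31 of 43 large subunit genes (72.1%) and in 20.5% of all 27305 promoters of the same length; RPS4X, RPS26 and RPS29 had none in this window. The motif GGGCGG, sought on both strands from 250 bases before to 50 after the start, was in 15 of 24 against 44.6% of all promoters, CCGGAAG in 8 against 10.7% and AAGATGG in 4 against 6.06%. All 5 stretches shown carry the pyrimidine run, in RPS24 at the start itself and in RPS3 from 3 bases before it.

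Guides against small subunit genes were mostly more frequent in the dim than in the bright quartile. The value of a guide is log2(top/bottom), the ratio of its shares of the 2 H3 libraries centred on the median of 290 non-targeting guides, and the value of a gene is the mean over its 5 guides with the SD over guides. Negative values mean that cells with the guide were more frequent in the dim quartile. Of the 27 genes, 20 passed an adjusted p of 0.05 as enriched in dim cells and 0 as enriched in bright cells. Of all 18116 targets tested, 1.53% passed as higher in the bottom and 2.37% as higher in the top; within H3 these shares were 3.28% and 4.21%. The median of the 27 genes was -0.47, a 1.39-fold higher share in dim cells, where the median of all targets was 0.01. Each p is two-sided, by permutation between the guides of the gene and those without a target, with Benjamini-Hochberg adjustment over all targets. They compare the 2 libraries of a single sort and hold no spread between sorts.

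The count differed between tests. The quasi-likelihood test of edgeR, blocked by guide, called 8 of the 27 and DESeq2 9. Both also use only the 2 libraries of a sort, with guides in place of replicates, and hold no spread between sorts. Higher in the bottom library by these tests were 0.603% and 1.5% of all targets with 5 guides, and 1.17% and 2.44% of those in H3. Without the guide farthest from 0 in each gene 10 of the 27 passed, where 0.591% of all targets and 1.38% of H3 targets were higher in the bottom library. The random draws were not trimmed in this way, so this setting is stricter for every target. By rank sum 10 also passed, against 1.13% and 1.69%. RPSA, RPS6, RPS13, RPS18, RPS20, RPS24, RPS27 and RPS28 passed under each of the 15 settings tried.

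Of the 135 guides, 108 (80%) lay below 0, against 48.3% of H3 guides. The non-targeting guides ranged from -0.68 to 0.83 with an SD of 0.215, and 48 of the 135 (35.6%) lay below the lowest of them, as did 1.73% of H3 guides. None of the 135 lay above the highest non-targeting guide, as 1.88% of H3 guides did. All 5 guides lay below 0 in 9 genes, against 5.06% of H3 targets, and the mean lay below 0 in 25 genes, against 47.2%. At least 1 such low guide was found in 23 genes: 8 had 1, 7 had 2 and 8 had 3 or more. The genes without one were RPS3, RPS3A, RPS9 and RPS16.

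**Figure D1:**
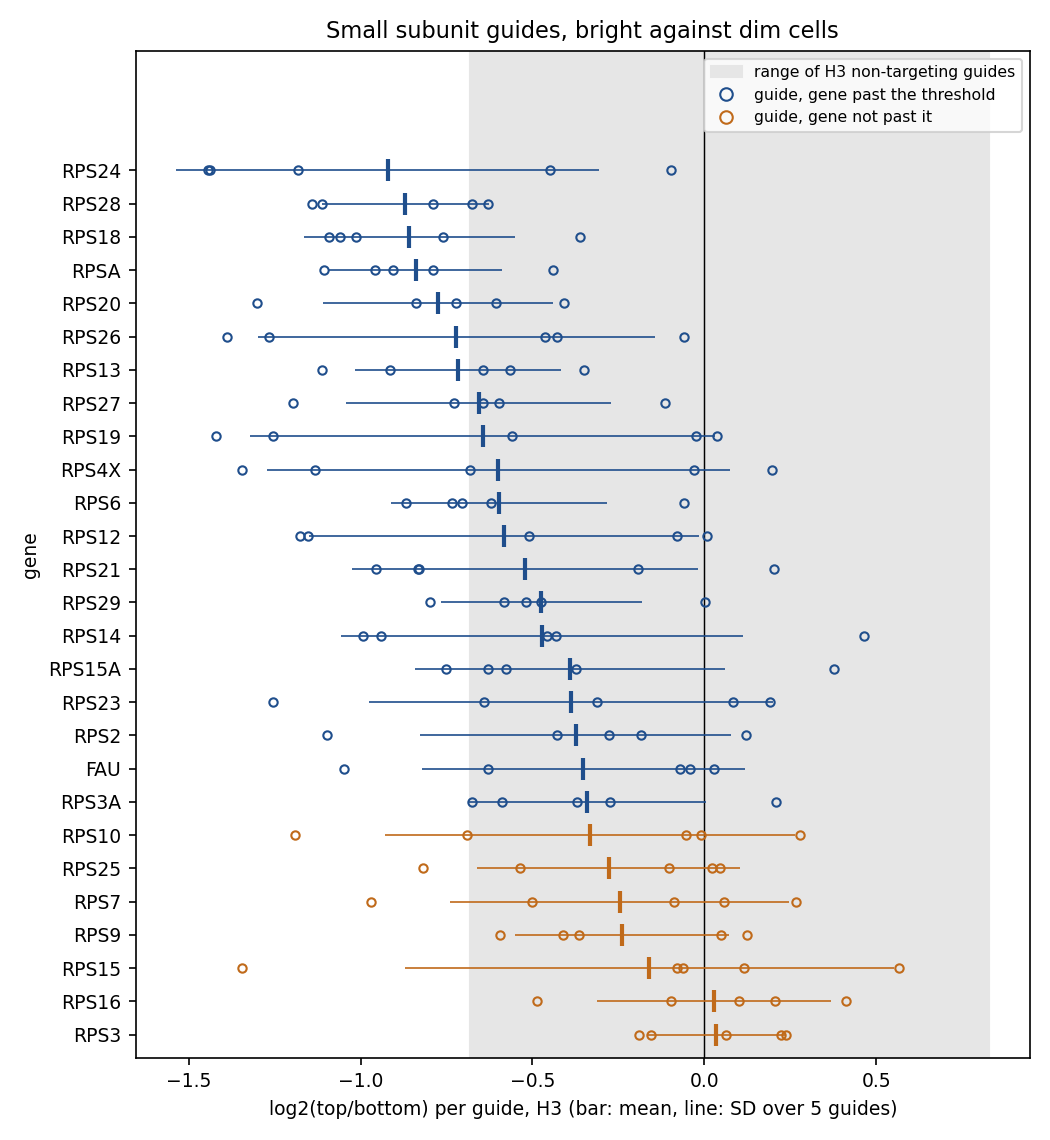
Log2(top/bottom) of each of the 5 guides (circles) of the 27 small subunit genes in H3, with the mean (bar) and the SD over guides (line); the grey band spans the 290 non-targeting guides, -0.68 to 0.83. Most genes show a spread of guides from near 0 down to about the left edge, and 9 genes have all 5 guides below 0.

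Among the proteins of the head, 6 of 11 (54.5%) passed toward dim cells, against 3.28% of H3 targets, with a median of -0.47. With edgeR 3 of the 11 passed, against 1.17% of H3 targets with 5 guides. RPS28, which sits at the mRNA exit side, had 318 RPM (reads scaled to library size) summed over its 5 guides in the bottom library and 180.0 RPM in the top. RPM pairs are given in this order, bottom before top. Each of its guides was below 0, from -1.14 to -0.63. The mean was -0.87 ± 0.24 (SD, n = 5 guides), 1.83-fold toward dim cells, with a permutation adjusted p of 6.91e-04. Before adjustment its p was 9.9999e-06, the smallest that the permutation test could give with its number of draws. Other targets share this limit, so the value does not rank RPS28 above them. RPS18, at the top of the head by the bridge to the large subunit, had 281 and 149 RPM and a mean of -0.86 ± 0.31. Its 5 guides had 903, 1332, 1408, 1713 and 2379 reads in the bottom and 805, 755, 952, 940 and 1277 in the top library, lower in the top for each.

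RPS20, another head protein and a site of regulatory ubiquitination on stalled ribosomes, had 233 RPM in the bottom and 132 in the top library, with all guides from -1.30 to -0.41 and a mean of -0.78 ± 0.33. RPS29, a zinc-binding head protein, had 268 and 190.1 RPM, and a mean of -0.47 ± 0.29 with 4 of 5 guides below 0. RPS28, RPS18, RPS20 and RPS29 shared the permutation adjusted p of 6.91e-04.

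RPS19 and RPS12 were more uneven. RPS19, the gene most often mutated in Diamond-Blackfan anaemia, had 296 and 198 RPM and a mean of -0.64 ± 0.68 (permutation adjusted p 0.00163). Its guides divided, with values of -1.42, -1.26 and -0.56 and another pair at -0.03 and 0.04. RPS12, at the beak of the head, had 306 and 234 RPM and a mean of -0.58 ± 0.57 (permutation adjusted p 0.00119), with guides at -1.18 and -1.15 and the others from -0.51 to 0.01. Both calls ended without the farthest guide, by rank sum, with edgeR and with DESeq2.

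The other 5 head genes did not pass. RPS10 had a mean of -0.33 ± 0.60 (permutation adjusted p 0.079) and RPS25, used by some viral RNAs to start translation, -0.28 ± 0.38. RPS15, which reaches toward the decoding site, had -0.16 ± 0.71: 1 guide was at -1.34, another at 0.57 and the rest between -0.08 and 0.12. RPS16, whose tail reaches the tRNA in the P site, and RPS3, at the mRNA entry channel, had 0.03 ± 0.34 and 0.04 ± 0.20 (SD, n = 5 guides each), the only means above 0. Of RPS3 the 5 guides had 630, 1240, 1491, 1682 and 1774 reads in the bottom and 648, 1483, 1994, 2271 and 1782 in the top library, and all lay inside the range of non-targeting guides. The second start of RPS3 had 0.03 ± 0.16 and that of RPS29 -0.06 ± 0.04; neither passed.

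**Figure D2:**
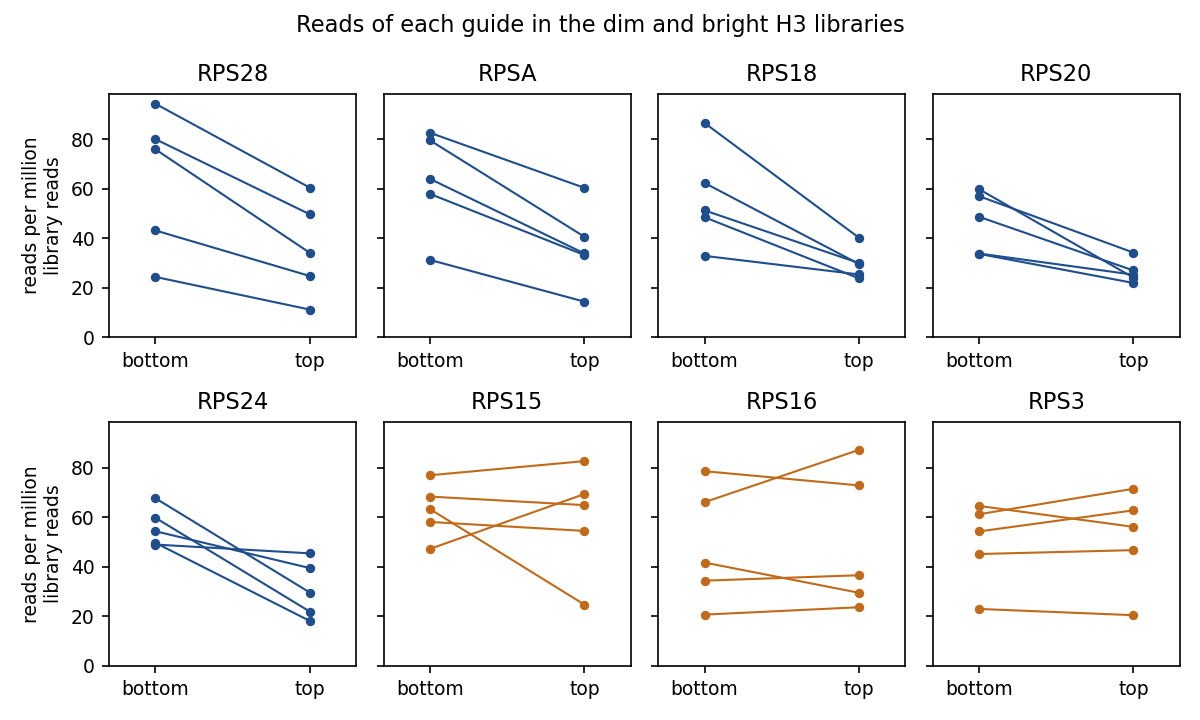
RPM (reads scaled to library size) for each of the 5 guides (lines) in the bottom and the top H3 library, for 5 genes that passed (blue) and 3 that did not (orange). Every line falls from bottom to top for RPS28, RPSA, RPS18, RPS20 and RPS24; for RPS15 a single guide falls steeply, and for RPS16 and RPS3 lines go both ways.

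Of the 16 proteins of the body and platform, 14 (87.5%) passed, all toward dim cells, against 3.28% of H3 targets, with a median of -0.50. By edgeR 5 of the 16 passed, against 1.17% of H3 targets with 5 guides. RPS24, an early-joining protein of the body, had the lowest mean of the 27. It had 280.3 and 154 RPM and a mean of -0.92 ± 0.61 (SD, n = 5 guides), 1.89-fold toward dim cells. Its guides fell into 3 at -1.44, -1.44 and -1.18 and 2 nearer to 0 at -0.45 and -0.10. RPSA, also known as the laminin receptor precursor and set at the back of the body, had 315 and 182 RPM and a mean of -0.84 ± 0.25. Its guides had 858, 1591, 1758, 2186 and 2270 reads in the bottom and 456, 1055, 1075, 1289 and 1917 in the top library. RPSA and RPS28 had the narrowest spreads over guides of the genes that passed.

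RPS26, at the mRNA exit, had 368 and 231 RPM and a mean of -0.72 ± 0.58, with guides from -1.39 to -0.06. RPS13, which joins early and forms a bridge to the large subunit, had 266 and 154 RPM and a mean of -0.72 ± 0.30, with guides from -1.11 to -0.35. RPS27, a zinc-finger protein, had 389 and 255 RPM and a mean of -0.66 ± 0.39, with guides from -1.20 to -0.12. In RPS6, the substrate of the S6 kinases, the levels were 254 and 171 RPM, and the mean was -0.60 ± 0.31. All 5 guides of each of these genes lay below 0.

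RPS4X, the X-linked copy of its protein, had 219 and 182 RPM and a mean of -0.60 ± 0.67. Its guides ran from -1.35 to 0.20, and the lowest had 243 reads in the bottom and 109 in the top library, the fewest of the 135. RPS21, a small protein beside RPSA, had 331 and 236 RPM and a mean of -0.52 ± 0.50. The genes of the body named so far had a permutation adjusted p of 6.91e-04 each.

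The remaining genes of the body that passed had larger p-values and at least 1 guide above 0. RPS14, on the platform and the gene haploinsufficient in the 5q- syndrome, had 240.2 and 186 RPM and a mean of -0.47 ± 0.59 (permutation adjusted p 0.00286), with a guide at 0.46. RPS15A, a body protein that joins early, had 412 and 315 RPM and a mean of -0.39 ± 0.45 (0.00946 in the same permutation test). RPS23, at the decoding centre, had 239 and 184 RPM and a mean of -0.39 ± 0.59, and RPS2, at the mRNA entry, 439 and 348 RPM and a mean of -0.37 ± 0.45, with permutation adjusted p-values of 0.0354 and 0.0306. FAU had 367 and 295 RPM and a mean of -0.35 ± 0.47, and RPS3A, a platform protein, 249 and 187 RPM and a mean of -0.34 ± 0.35, with permutation adjusted p-values of 0.0412 and 0.0276. The calls of RPS4X, RPS21, RPS14, RPS15A, RPS23, RPS2, FAU and RPS3A ended without the farthest guide, by rank sum, with edgeR and with DESeq2, those of RPS2, RPS23 and FAU also by the median over guides. RPS26 lost its call with edgeR and DESeq2, and RPS29 with edgeR.

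RPS7 and RPS9, both early-joining proteins of the body, had means of -0.25 ± 0.49 and -0.24 ± 0.31 (SD, n = 5 guides each) and did not pass, with permutation adjusted p-values of 0.224 and 0.215. RPS7 had guides at -0.97 and -0.50 and the others between -0.09 and 0.27. The genes on either side of the threshold were thus close in size: FAU and RPS3A passed at -0.35 and -0.34, and RPS10 did not at -0.33. Whether head and body genes differ was not tested.

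The spread over guides was wide in this group. The SD over the 5 guides ran from 0.202 in RPS3 to 0.711 in RPS15 with a median of 0.451, where the median over H3 targets was 0.198. It was above the SD of the non-targeting guides in 26 of 27 genes, against 42.9% of H3 targets. How strongly each guide represses its gene was not measured.

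All 5 guides of RPS10 were sorted a second time. They are also listed for RPS10-NUDT3, a readthrough gene with the same start, in H7, a sublibrary that was transduced and sorted separately. In H3 the 5 guides had -1.19, -0.69, -0.05, -0.01 and 0.28, and in H7 the same guides, in the same order, had -1.56, -0.43, 0.24, 0.26 and 0.40. The order of the guides was the same in both sorts, and the differences between sorts ran from -0.37 to 0.29. Over the 506 guides that 2 compared sublibraries share, the median size of that difference was 0.175, and over the 66 shared by H3 and H7 it was 0.244. The mean in H7 was -0.22 ± 0.81 and did not pass (permutation adjusted p 0.634). No other of the 27 genes had its guides in another compared sublibrary.

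Guide abundance, a readout that the sort ratio leaves out, was the log2 of a guide's summed share of both libraries relative to the median non-targeting guide. No library of the starting guides was analysed here, so it is a level after 8 days and not a change. The gene means ran from -0.92 in RPS4X and -0.78 in RPS3A to 0.41 in RPS2. Their median was -0.31, against -0.06 for H3 targets, with 20 of 27 below 0 where 58% of H3 targets were. No gene mean reached -1, as 1.23% of H3 targets did (RPS20 and RPS4X did in the top library alone, and RPS3A by the median over guides), and the non-targeting guides themselves had an SD of 0.686. From the bottom library alone the median was -0.06 and from the top alone -0.61.

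Over the 27 genes Pearson's r was 0.25 and over the 135 guides 0.32, with both measures taken from the same reads; over H3 targets r was -0.09. The least abundant guide of a gene had a lower ratio than the most abundant in 20 of 27 genes, and in 49.1% of H3 targets. RPS16 and RPS3 each had a guide at an abundance of -1.37 and -1.41, and those guides had ratios of 0.21 and -0.16. Of 593 H3 targets outside the group with abundances between the lowest and the median gene of the 27, 3.71% passed toward dim and 6.24% toward bright cells.

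**Figure D3:**
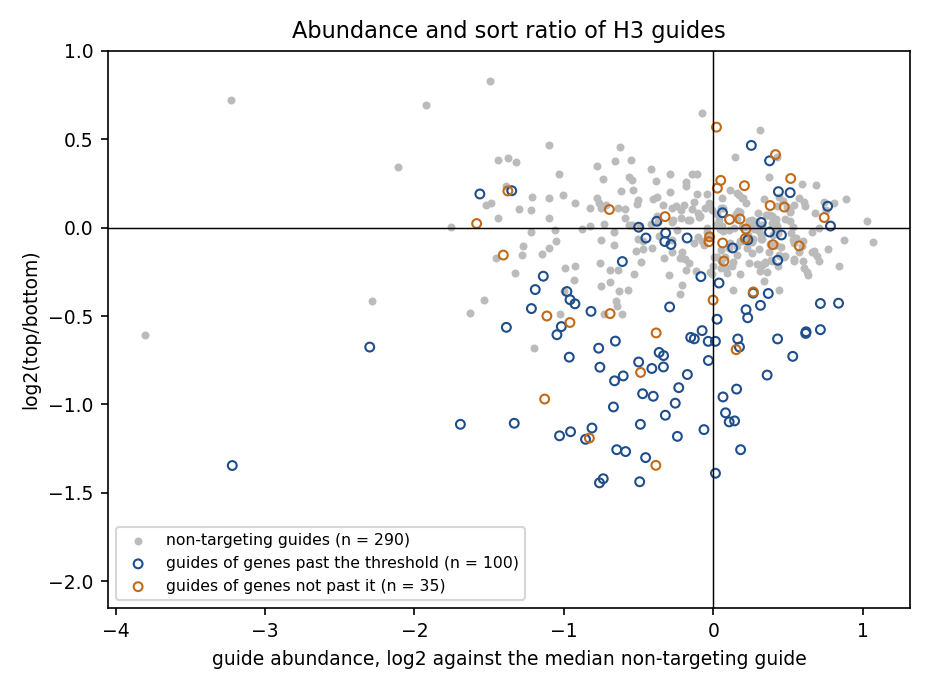
Log2(top/bottom) against guide abundance for the 135 guides of the 27 genes, 100 of genes that passed (blue) and 35 of genes that did not (orange), with the 290 non-targeting guides in grey. The 48 guides below the lowest non-targeting guide have abundances from -3.22, a guide of RPS4X, to 0.53, with a median of -0.46, and several other guides of low abundance lie near 0.

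Most genes had no close neighbour in the library. In 6 of 27 a guide lay within 1000 bases of a guide for another gene: MRPL49 beside FAU, VPS52 beside RPS18, TRAPPC4 beside RPS25, NDUFA7 beside RPS28, LRR1 beside RPS29 and RPS10-NUDT3 over RPS10. MRPL49 and VPS52 are in H4 and were not compared; 1 FAU guide is also listed for MRPL49. NDUFA7, of respiratory complex I, had -0.26 ± 0.45, and TRAPPC4 and LRR1 had 0.09 ± 0.23 and -0.04 ± 0.33 (SD, n = 5 guides each); none passed. Without these 6 genes 16 of 21 passed, with a median of -0.52.

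Other small subunit proteins and relatives of the 27 gave mixed values. RPS27A, a fusion of ubiquitin to a head protein, had -0.87 ± 0.25, and GNB2L1 (RACK1), the signalling scaffold on the head, -0.54 ± 0.29; both passed with a permutation adjusted p of 6.91e-04. RPS27L, a close relative of RPS27, had -0.03 ± 0.24, and RPS4Y1 and RPS4Y2, the Y-linked relatives of RPS4X, had -0.08 ± 0.11 and 0.14 ± 0.28 (SD, n = 5 guides each). RPS27L, RPS4Y1 and RPS4Y2 did not pass. Whether these cells carry and express RPS27L, RPS4Y1 and RPS4Y2 was not measured, so their values do not show what loss of these proteins does.

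The proteins of the large subunit, sorted in the same H3 libraries, had fewer calls. Of 54 genes 6 (11.1%) passed toward dim and 1 (1.85%) toward bright cells, against 3.28% and 4.21% of H3 targets. The median was -0.09. Without the farthest guide the 1 call was RPL10A toward dim cells, and with edgeR it was RPL36A toward bright cells. The median over guides, the rank sum and DESeq2 each made 3 calls, RPL10A and RPL36A among them. RPL10A had -0.58 ± 0.36 and RPL24 -0.40 ± 0.32, and RPL36A had 0.45 ± 0.29, toward bright cells (SD, n = 5 guides each). When guides listed under more than 1 target were left out, RPL36A was not called, and 7 genes passed toward dim and 0 toward bright cells. Of the 270 guides of the 54 genes 159 (58.9%) lay below 0 and 19 (7.04%) below the lowest non-targeting guide. The median abundance of the 54 genes was -0.38. The difference between the subunits was not tested as such.

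The factors that build the small subunit also leaned toward dim cells. Of 45 processome and late assembly factors 25 (55.6%) passed toward dim and 0 toward bright cells, against 1.53% and 2.37% of all targets. With edgeR 11 passed, where 0.603% of all targets with 5 guides were higher in the bottom library. The median was -0.47, the same to 2 decimals as for the 27 proteins. Of the 12 that were in H3, 8 (66.7%) passed toward dim cells, against 3.28% of H3 targets, with a median of -0.56. The farthest was the kinase RIOK2 at -1.74 ± 0.53 in H1. Next were the processome proteins NOL6 and RRP9 at -1.36 ± 0.96 and -1.23 ± 0.77 in H5. With edgeR RIOK2 and RRP9 passed and NOL6 did not (edgeR adjusted p 0.0587). The guides of NOL6 ran from -2.33 to 0.005, and its mean guide abundance was -1.24. Of 11 chaperones and modifiers of small subunit proteins, such as the RPS26 chaperone TSR2, 0 passed toward dim cells by the permutation test. Toward bright cells 1 (9.09%) passed, against 2.37% of all targets. It was RNF10, a ligase that ubiquitinates RPS2 and RPS3, at 0.55 ± 0.61 (SD, n = 5 guides, permutation adjusted p 0.00205). The RNF10 call ended without the farthest guide, by rank sum, with edgeR and with DESeq2.

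**Figure D4:**
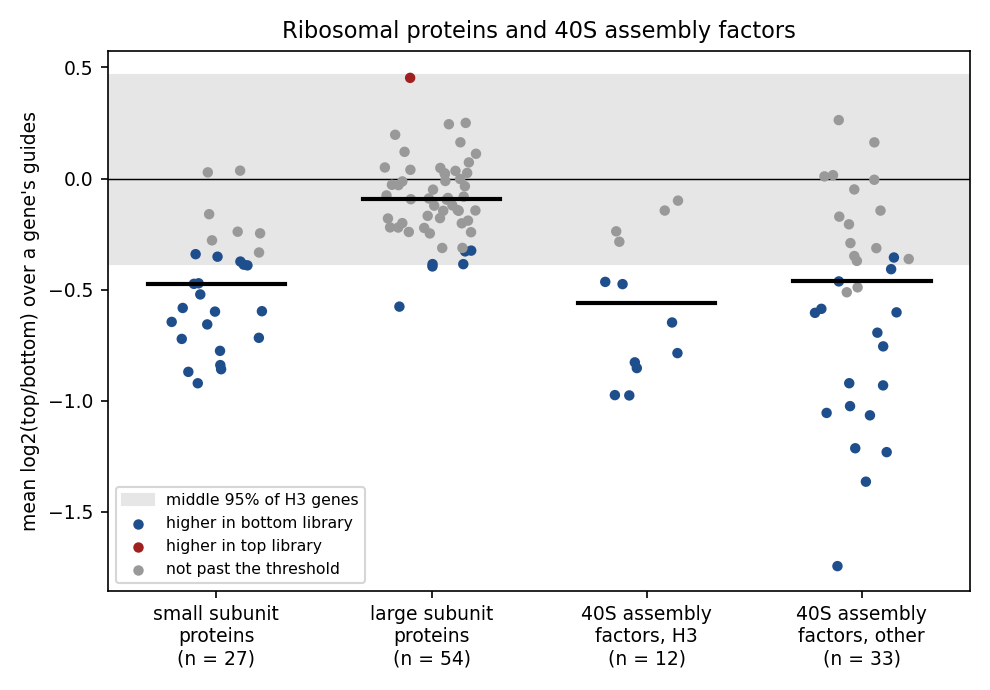
Mean log2(top/bottom) of each gene (points) of the small subunit (27), the large subunit (54) and the small subunit assembly factors in H3 (12) and in the other compared sublibraries (33), with list medians (lines) and the central bulk of H3 genes in grey. The small subunit median is -0.47 and the large subunit median -0.09, and 20 and 6 genes are marked as higher in the bottom library. The large subunit list includes relatives such as RPL3L and RPL10L, whereas RPS27L, RPS4Y1 and RPS4Y2 are outside the 27.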

How the data were processed

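The authors deposited raw counts of reads for each guide. Bowtie is named, without a version, per the submitters' processing notes. The build behind the guide positions is not stated in any source used. Depth over the 12 compared libraries ran from 18054418 to 34636612 reads. PCR reads carry no molecular identifiers. H4 was not compared, since its top table ended after 35 guides.

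After adding 1, counts were scaled to their library's total. Each guide's log2(top/bottom) was set relative to the sublibrary's median non-targeting guide. A guide needed 50 counts in 1 of the libraries, and a target (a gene and a start label) 3 guides. The mean of each target was compared with 100000 random draws, equal in number of guides, from its guides pooled with the sublibrary's non-targeting ones, in a two-sided permutation test with Benjamini-Hochberg adjustment over 18116 targets. With 1 library per group edgeR cannot test single guides, so edgeR 4.0.16 and DESeq2 1.42.0, with the guide as a block on targets with 5 guides, were alternatives. The tests were checked on simulated data. Chromosomes came from RefSeq symbols, matched for 18814 of 18905 names.

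The genes and lists were chosen with earlier results of these data known. Every member was named; of the other lists, the up to 3 called genes farthest from 0. Some genes that this rule takes are not reported here. Alternatives were other pseudocounts, count filters, scalings, guide summaries and tests.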

Additional observations from a re-analysis of the deposited data

How the results depend on the processing

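The median of the 27 genes stayed between -0.52 and -0.39 under every alternative tried, and 0 of them were called toward the top library in any. The 20 calls became 10 without the farthest guide, 10 by rank sum, 8 with edgeR and 9 with DESeq2. Under the other alternatives 17 to 21 passed, RPS10 being added when p-values were adjusted within sublibraries. Without the 6 genes near another gene's guides 16 of 21 passed, as 4 of the 20 called genes were among those removed. Calls over all targets were 708, with 309 when the farthest guide was left out and 260 in edgeR. The 7 calls in the large subunit became 3 by the median over guides, 1 without the farthest guide, 3 by rank sum, 1 with edgeR and 3 with DESeq2, and the 25 among assembly factors became 11 with edgeR. The 1 call among chaperones and modifiers became 0 without the farthest guide, by rank sum, with edgeR and with DESeq2. The setting without the farthest guide is stricter by design, since the random draws kept theirs. The cause of these losses was not tested. The means of RPS15 and RPS3, which were not called, changed sign under some settings. By the mean over guides and both libraries no gene reached an abundance of -1 or -2. From the top library alone 2 reached -1, and by the median over guides 1. The median abundance was -0.61 from the top library alone. No paired analysis was possible because each group had 1 library. Counting error is small at this depth: it gives an SD of 0.0565 for non-targeting guides, against 0.215 observed.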
